A study of Homo sapiens
Mus musculus with 24 samples.

Results

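Tumors of mice fed moringa concentrate alone (MC) were compared directly with tumors of mice given chemotherapy alone (Chemo). The members were the 10 libraries whose titles carry 1 of these treatments and not both, 5 MC and 5 Chemo, out of 24 libraries in the series. All were xenografts of MDA-MB-231, an established human triple negative breast cancer cell line, grown under the skin at the base of the neck in female B6/Rag1KO mice that were 14 weeks old at injection by the labels, an age on which the sources used here differ. Every mouse of both groups ate a high-fat diet. Chemo mice were injected intraperitoneally each week for 4 weeks with cyclophosphamide (100 mg/kg) and doxorubicin (2 mg/kg), and MC mice received the concentrate of moringa seed extract at 0.6% of the diet for 4 weeks. The labels give no injections for MC, so the drugs and the weekly injections cannot be told apart. The 4 CTRL libraries (high-fat diet with weekly saline) are given as a reference level and took no part in the fit. A library is called by its group and mouse number.

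Doxorubicin is a topoisomerase poison and cyclophosphamide an alkylating agent after activation in the liver. Both damage DNA in dividing tumor cells and in host cells, and cells with a working p53 protein answer DNA damage with transcription of p53 targets, among them the cell cycle inhibitor p21. MDA-MB-231 carries a mutant p53. A xenograft library holds human transcripts from the cancer cells and murine transcripts from vessels, fibroblasts, myeloid cells and neighbouring host tissue, so the 2 sides can be read from the same piece of tumor. The Rag1 null host lacks mature T and B lymphocytes. Of 14 lymphocyte genes 6 were in the murine table, namely Cd4, Nkg7, Ncr1, Klrb1c, Gzmb and Gzma. Cd3e, Cd3d, Cd3g and Ms4a1 were among those absent. Which cells the genes present came from was not tested.

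Murine counts per library ran from 4058787 to 9892470 in MC and from 4397815 to 6000113 in Chemo, and human counts from 7796231 to 17621273 and from 8154438 to 14921856. Human genes took 61.6 ± 7.83% of all counts in MC (SD, n = 5) and 66.2 ± 4.37% in Chemo (SD, n = 5), and the difference of -4.64 percentage points did not pass the exact permutation test (two-sided p = 0.31, smallest possible 0.00794). MC 41 stood apart with a human share of 47.8% (95% Wilson interval 47.8 to 47.9%). The murine mitochondrial share was 17.1% in MC 41 and 7.89% in MC 6, against 1.63 to 2.00% in the other MC libraries and 0.857 to 1.69% in Chemo. The RNA of MC 41 and MC 42 had passed an extra column cleanup. The labels name no batch or date, and of the 20 library pairs within the groups 0 were identical.

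Markers of the injected line were present in every library of both groups. VIM, the mesenchymal filament vimentin, was 4400 or more, CD44 3780 or more and EGFR 1890 or more in normalized counts, and ESR1, the estrogen receptor, was 10.7 to 88.3. The progesterone receptor gene PGR was not in the table. ERBB2 and GATA3, listed with ESR1 and PGR as markers low in this line, were not as low. They had 4702 and 3997 raw counts in total over the 10 libraries, against 308 for ESR1. Epithelial genes, of which this line is known to express little, were also abundant: CDH1 (E-cadherin) was 1660 to 3930 and EPCAM 2410 to 4010 in the 10 libraries. In CTRL 17 the same genes were at 2.73 and 73.8. What sets these levels was not tested.

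The direct contrast asked which tumor-cell and host transcripts differed between the single treatments. A gene counted as called when its adjusted p was below 0.05, its mean normalized count above 30 and its fold change above 1.5. With the edgeR quasi-likelihood test, 0 of 13619 murine genes (background 0%) and 0 of 14960 human genes (0%) were called. The lowest Benjamini-Hochberg adjusted p of edgeR was 0.534 in the murine and 0.0633 in the human genome. At an unadjusted p below 0.05, edgeR listed 830 murine genes as higher in MC (6.09% of those tested) and 327 as lower (2.4%), and 723 human genes as higher (4.83%) and 645 as lower (4.31%), together 1157 murine (8.5%) and 1368 human genes (9.14%).

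The choice of test moved these counts. DESeq2 called 43 of 15651 murine genes (0.275%), 33 higher (0.211%) and 10 lower (0.0639%) in MC, and 75 of 15912 human genes (0.471%), 55 higher (0.346%) and 20 lower (0.126%). limma-voom with quality weights called 0 murine and 9 human genes (0.0602%). Every MC library lay above every Chemo library for 60 murine genes (0.441%) and 142 human genes (0.949%), and below for 67 (0.492%) and 124 (0.829%), together 127 murine (0.933%) and 266 human genes (1.78%). The median log2 fold change, written throughout as MC minus Chemo, was 0.01 over all murine and -0.004 over all human genes tested.

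On the host side, murine p53 target genes were lower in MC than in Chemo. Of 22 tested, 17 were lower and 5 higher (22.7%, where 52.2% of all murine genes were higher), with a median log2 fold change of -0.26. At an unadjusted p below 0.05, 5 were lower, and in 4 of them the groups did not overlap. None passed the edgeR test over all genes. Over all murine genes tested, 2.4% were lower at that p and 0.492% lay below Chemo in every MC library. The level of the list, its mean log2(normalized count + 1), was 6.44, 6.58, 6.53, 6.45 and 6.32 in MC 6, 41, 42, 48 and 59. It was 6.89, 6.73, 6.90, 6.80 and 6.83 in Chemo 19, 30, 33, 34 and 67. All MC libraries therefore lay below all Chemo libraries, and the 4 CTRL libraries, at 6.31 to 6.43, were near MC. In bulk tissue, fewer cells of a type and less RNA per cell cannot be told apart.

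Cdkn1a encodes p21, which halts the cell cycle after DNA damage. Its normalized counts were 1720, 1210, 1250, 1130 and 1720 in Chemo 19, 30, 33, 34 and 67, and 638, 760, 826, 607 and 587 in MC 6, 41, 42, 48 and 59. No MC library reached the lowest Chemo library, and CTRL ran from 577 to 1140. Its log2 fold change was -1.03 (SE 0.17), with an adjusted p of 0.534 by edgeR and 0.000294 by DESeq2. This was the lowest unadjusted p among murine genes that were lower in MC, and the value stayed between -1.10 and -0.94 when each library was left out.

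Trp53inp1, a p53-induced nuclear protein that takes part in stress-driven cell death and autophagy, was 223, 231, 267, 211 and 159 in Chemo and 87.3, 105, 135, 132 and 126 in MC. The groups did not overlap, with Chemo 67 the lowest Chemo library and MC 42 the highest MC library. Its log2 fold change was -0.89 (SE 0.18; DESeq2 adjusted p 0.00944).

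Zmat3, an RNA-binding p53 target, was 202, 227, 233, 226 and 235 in Chemo and 156, 108, 162, 153 and 128 in MC (log2 fold change -0.66, SE 0.15; DESeq2 adjusted p 0.027). Eda2r, the receptor for an ectodysplasin isoform, was 34.8, 24.4, 40.3, 34.2 and 40.9 in Chemo and 6.35, 20, 21.4, 15.5 and 9.06 in MC (log2 fold change -1.21, SE 0.32; DESeq2 adjusted p 0.0908). Both were chosen after their values were seen, and both separated the groups fully. Gtse1, a cell cycle gene that restrains p53, had a log2 fold change of -0.97. Mdm2, the ligase that degrades p53, was 297 ± 57 in MC and 360 ± 44.5 in Chemo (SD, n = 5 each), a log2 fold change of -0.27 (SE 0.16) with overlapping groups.

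The members higher in MC, by log2 fold change, were Ddit4l (0.61), Phlda3 (0.41), Ei24 (0.21), Perp (0.16) and Tnfrsf10b (0.16). Ddit4l exceeded a 1.5-fold change but had an unadjusted p of 0.297 by edgeR, and none of these genes passed the edgeR test. Human p53 targets showed no such difference in these tumors: 8 of 22 were higher and 14 lower with a median of -0.08, and CDKN1A was 2470 ± 290 in MC and 2260 ± 287 in Chemo (log2 fold change 0.13, SE 0.12). The share higher over all human genes tested was 49.1%. The difference between the murine and the human fold change was not tested.

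**Figure D1:**
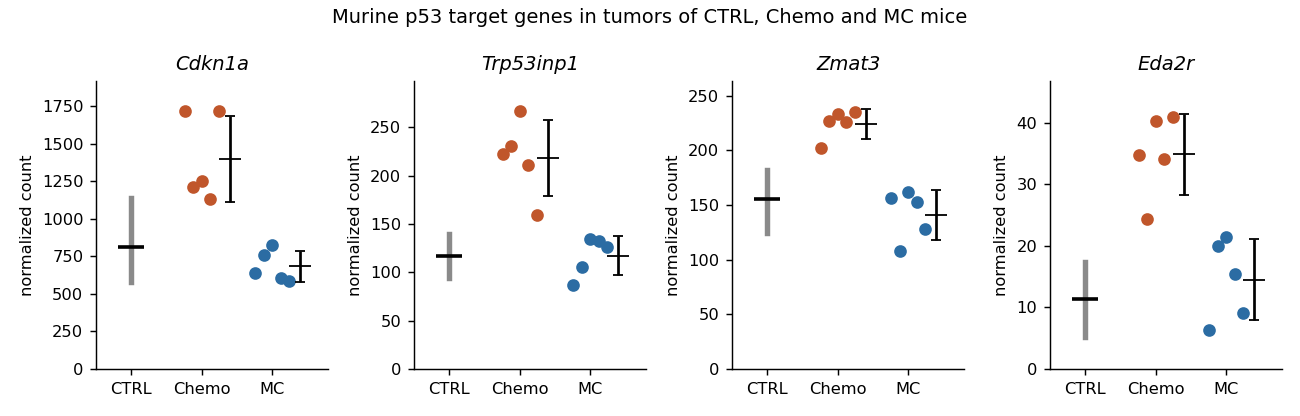
Normalized counts of murine p53 target genes on the vertical axis of each panel, with 1 point per Chemo and MC library, the mean with SD beside them, and a grey bar from the lowest to the highest CTRL library with its median. Cdkn1a lay between 1130 and 1720 in Chemo and between 587 and 826 in MC.

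Host tissue genes set the largest murine differences, and they sat in a few libraries. All 16 skeletal muscle genes tested, of 28 on the list, were higher in MC with a median log2 fold change of 3.61, and 15 had an unadjusted p below 0.05. All 18 adipocyte genes were higher with a median of 2.88, 13 of them at an unadjusted p below 0.05. All 33 oxidative phosphorylation genes tested, which build the respiratory chain of mitochondria, were higher with a median of 1.5, 29 of them at an unadjusted p below 0.05. Over all murine genes tested, 52.2% were higher in MC and 6.09% were higher at that p.

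The muscle level was 11.24 in MC 41, 9.11 in MC 48 and 7.41 in Chemo 30, and between 4.20 and 4.95 in the other 7 libraries. CTRL ran from 4.19 to 4.45. Without MC 41 the median of the list was 1.80, without Chemo 30 it was 4.80, and without MC 6, MC 41, MC 48 and Chemo 30 together it was 0.21. Those libraries were left out because their muscle or fat levels were high, so lower muscle and fat medians follow from the choice. Only MC 42 and MC 59 then remained against Chemo 19, 33, 34 and 67, and MC 42 had passed the extra RNA cleanup. All values given without the 4 libraries therefore rest on few MC tumors. Acta1, the actin of skeletal muscle fibres, was 12300 in MC 41, 3020 in MC 48 and 601 in Chemo 30, and from 14.2 to 42.8 in the other 7.

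The adipocyte level was 12.17 in MC 41 and 10.33 in MC 6, and between 5.34 and 7.98 in the other 8 libraries. Its median without MC 41 was 1.21, and without the 4 libraries it was -0.68. Ucp1, the uncoupling protein by which brown fat makes heat, was 5400 in MC 6 and 27200 in MC 41, against 20.3, 50.8 and 14.2 in MC 42, 48 and 59 and 5.69 to 30.3 in Chemo. This gave a log2 fold change of 8.40 (SE 2.05; adjusted p 0.534 by edgeR, 0.000301 by DESeq2). Cidea, a lipid droplet protein of brown fat, followed with 2390 and 10800 in MC 6 and MC 41 and no more than 36.2 elsewhere (log2 fold change 7.10, SE 1.79, chosen after its values were seen). Leptin (Lep), made mainly by white fat, was 73.0, 308, 5.36, 56.8 and 15.5 in MC and 3.6, 32.6, 99.8, 61.8 and 1.9 in Chemo (log2 fold change 1.18, SE 1.00).

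The oxidative phosphorylation level was 11.65 in MC 41 and 9.75 in MC 6, and 8.30 to 8.73 in the other 8 libraries. Its median was 0.47 without MC 41 and 0.00 without the 4 libraries. Cox7a1, a cytochrome oxidase subunit of muscle and brown fat, was 1270 in MC 6 and 4870 in MC 41, and 3.88 to 43 elsewhere (log2 fold change 6.35, SE 1.62). Fabp3, a fatty acid carrier of the same tissues, was 1300, 5850, 8.34, 132 and 11.7 in MC and 26.4, 14.0, 5.04, 8.13 and 6.65 in Chemo (log2 fold change 6.94, SE 1.66). MC 42 and MC 59 were thus within the Chemo range for Fabp3 while the other 3 MC libraries were above it.

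The same libraries stood out among the host genes that DESeq2 called. Of the 25 murine genes it called higher in MC and edgeR also tested, MC 41 was the highest of the 10 libraries in 21, and 5 separated the groups. Without the 4 libraries, 16 of the 25 kept a higher mean in MC and 11 kept it by more than 1.5-fold. Of the 9 called lower, 8 separated the groups, and 9 kept the sign without the 4 libraries, 7 of them by more than 1.5-fold. Over all murine genes tested, 0.441% lay above Chemo in every MC library and 0.492% below. The libraries that remain, with only MC 42 and MC 59 from MC, also made the calls, so these counts are no independent test of them. Human counts also lay on genes of muscle and fat in MC 41. Over 18 of the 28 muscle genes they were a median of 15.1% of the murine counts of the namesake (0.819 to 60.2%). Over 9 of the 18 adipocyte genes the median was 1.21% (0.0388 to 8.23%). The other genes of both lists were not in these medians, which hold for the genes covered only. Human values of such genes in that library stood beside high murine ones.

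**Figure D2:**
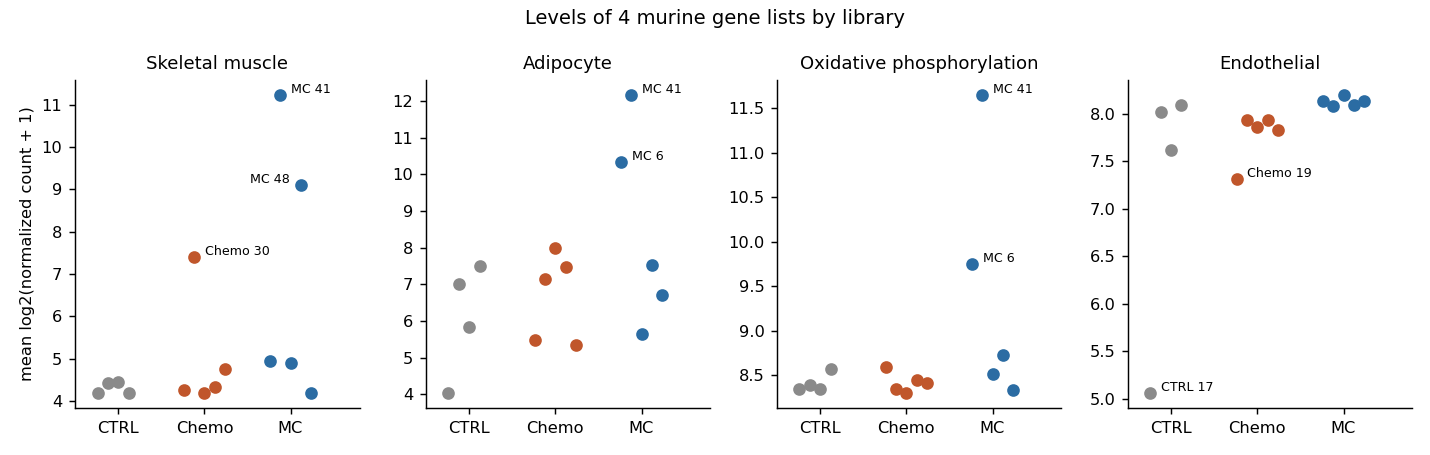
Level of 4 murine gene lists in each CTRL, Chemo and MC library, as mean log2(normalized count + 1) over the list. MC 41 reached 11.24 for muscle, 12.17 for adipocyte and 11.65 for oxidative phosphorylation genes, while the endothelial level of MC was 8.08 to 8.20 in all 5 libraries.

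Endothelial genes were also higher in MC, by smaller amounts. Of 19 tested, 18 were higher in MC with a median log2 fold change of 0.37, 7 at an unadjusted p below 0.05 and 3 with groups that did not overlap. The same shares over all murine genes tested were 52.2%, 6.09% and 0.441%. The list level was 8.13, 8.08, 8.20, 8.09 and 8.13 in MC 6, 41, 42, 48 and 59, and 7.31, 7.93, 7.86, 7.93 and 7.83 in Chemo 19, 30, 33, 34 and 67. All MC libraries were above all Chemo libraries, with Chemo 19 the lowest, and the median was 0.25 without Chemo 19 and 0.48 without the 4 libraries high in muscle or fat genes. Of the CTRL libraries, 3 were between 7.62 and 8.09 and CTRL 17 was at 5.06.

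Tie1, a receptor kinase of vessel walls, was 235, 175, 201, 160 and 201 in MC and 79.2, 144, 104, 138 and 130 in Chemo (log2 fold change 0.71, SE 0.19). Flt1, a VEGF receptor, was 1360, 1310, 1450, 1200 and 1290 in MC and 638, 1180, 850.0, 1130 and 1120 in Chemo, a log2 fold change of 0.43. Mmrn2, an endothelial matrix glycoprotein, was 524, 515, 560, 464 and 557 in MC and 280, 448, 371, 455 and 421 in Chemo, with a log2 fold change of 0.41. In each of these genes the lowest MC library was above the highest Chemo library. Cdh5, the cadherin of endothelial junctions, was 491 ± 74.2 in MC and 355 ± 84.2 in Chemo (log2 fold change 0.47, SE 0.19) with overlap. Pecam1, the gene of the vessel marker CD31, was 768, 894, 906, 987 and 1050 in MC and 620, 790, 962, 804 and 715 in Chemo (log2 fold change 0.25, SE 0.16), and here the groups overlapped. Murine Vegfa, the main endothelial growth factor, had equal means of 2380.

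On the neutrophil list, 8 of 10 genes tested, of 16 listed, were lower in MC with a median of -0.53. Of these, 4 had an unadjusted p below 0.05 and 0 separated the groups. Over all murine genes tested, 52.2% were higher in MC and 2.4% were lower at that p. The list level was 6.29, 5.25, 7.83, 7.5 and 7.25 in Chemo 19, 30, 33, 34 and 67, and 5.85 to 6.3 in MC. Chemo 30 was thus below every MC library and Chemo 19 was within the MC range. Ngp, a granule protein of immature neutrophils, was 10.8, 22.1, 747, 398 and 47.5 in Chemo and 1.59, 10.9, 0.596, 1.72 and 1.29 in MC. Chemo 33 and Chemo 34 were far above the rest, and MC 41 at 10.9 just exceeded Chemo 19. Its log2 fold change was -6.20 (SE 1.29; adjusted p 0.534 by edgeR, 0.000887 by DESeq2). S100a8, a subunit of the neutrophil protein calprotectin, was 1370, 479, 3740, 2220 and 1730 in Chemo and 668, 517, 657, 1010 and 830 in MC (log2 fold change -1.37, SE 0.42), with Chemo 30 below every MC library and the other 4 Chemo libraries above them. Its partner S100a9 had a log2 fold change of -1.22 (SE 0.41), and Mmp8, a neutrophil collagenase, of -1.60 (SE 0.48). Cxcr2, the chemokine receptor of mature neutrophils, was 76.5 ± 17 in MC and 67.7 ± 49.7 in Chemo (log2 fold change 0.18). Il1r2 was also higher in MC (log2 fold change 0.63, SE 0.32), and Csf3r, counted as lower, was at -0.0 (SE 0.34). Without Chemo 33 the median of the list was -0.16, and the markers Camp, Ltf, Elane and Mpo did not pass the filter on low counts.

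Macrophage genes as a group were level between the treatments, 9 of 21 higher with a median of -0.05, while a few differed in opposite directions. The share higher over all murine genes tested was 52.2%. Chil3, a chitinase-like protein of alternatively activated and inflammatory myeloid cells, was 94.8, 44.2, 146, 73.2 and 33.3 in Chemo and 0, 14.5, 13.7, 23.2 and 20.7 in MC, without overlap (log2 fold change -2.38, SE 0.56; DESeq2 adjusted p 0.00592). Retnla, another gene of alternatively activated macrophages, was 198, 723, 841, 1170 and 273 in MC and 38.4, 193, 98.8, 312 and 38.0 in Chemo (log2 fold change 2.24, SE 0.63, chosen after its values were seen). Ccr2, the receptor by which monocytes leave the marrow, was 603, 859, 1160, 1370 and 1270 in MC and 2630, 1990, 2290, 2110 and 1250 in Chemo (log2 fold change -0.96, SE 0.26, also chosen after seeing its values). The general markers Csf1r (0.04), Cd68 (-0.09) and Adgre1 (-0.25) had log2 fold changes near 0.

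The remaining genes with the lowest unadjusted p on the host side belonged to several classes. H2-M2, a nonclassical MHC class I gene of a family with similar members whose reads may be shared, was 84.1, 57.1, 261, 178 and 192 in MC and 31.2, 50.0, 31.3, 47.2 and 33.3 in Chemo (log2 fold change 2.01, SE 0.38; adjusted p 0.534 by edgeR, 0.000683 by DESeq2). Ltbp1, which stores latent TGF-beta in the matrix, was 271, 304, 419, 221 and 254 in MC and 163, 171, 174, 168 and 176 in Chemo (log2 fold change 0.79, SE 0.17). Kcnj8, a potassium channel subunit of pericytes, was 130, 99.8, 92.9, 99.0 and 93.2 in MC and 52.8, 67.4, 43.4, 65.1 and 35.2 in Chemo (log2 fold change 0.97, SE 0.21). These 3 genes separated the groups, and their log2 fold changes without the 4 libraries were 2.67, 1.00 and 0.93.

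Fgf7, a growth factor made by fibroblasts for epithelium, was 149, 101, 183, 137 and 175 in Chemo and 46.0, 57.1, 97.7, 71.4 and 75.1 in MC (log2 fold change -1.08, SE 0.23). Gpr141, an orphan receptor, was 81.6, 62.8, 73.6, 84.6 and 80.8 in Chemo and 28.6, 25.4, 52.4, 42.2 and 32.4 in MC (log2 fold change -1.06, SE 0.23). Both were lower in every MC library than in any Chemo library. Tspan18, a tetraspanin, was 335, 589, 218, 77.5 and 162 in MC and 46.8, 65.1, 43.4, 83.8 and 105 in Chemo (log2 fold change 1.99, SE 0.46), with MC 48 inside the Chemo range.

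Globin genes did not separate the treatments. Hba-a1, which shares reads with its near copy Hba-a2, was 1580 ± 788 in MC and 1640 ± 812 in Chemo, a log2 fold change of -0.05 (SE 0.43). Hbb-bs was 3520 ± 1920 and 5140 ± 3010 (log2 fold change -0.55, SE 0.46). In CTRL, Hba-a1 ran from 168 to 459 and Hbb-bs from 352 to 1360, below every MC and Chemo library. The difference from CTRL was not tested. Of the matrix proteases, Mmp24 had a log2 fold change of -0.83 (SE 0.32), Mmp12 of 0.11 (SE 0.31) and Mmp13 of 0.60 (SE 0.42), the last with MC 41 at 382 and the other MC libraries at 2300 to 2870.

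Among human genes higher in MC with a mean above 30 and a fold above 1.5, COL6A1, TGFBI, CALB2, HHIP and PAEP had the lowest unadjusted p, and edgeR called none of them. COL6A1, the alpha 1 chain of collagen VI, was 1850, 1960, 970.0, 1160 and 1830 in MC 6, 41, 42, 48 and 59, and 706, 517, 590.0, 645 and 697 in Chemo 19, 30, 33, 34 and 67. Every MC library exceeded every Chemo library. Its log2 fold change was 1.31 (SE 0.19), with an adjusted p of 0.0633 by edgeR, 2.36e-06 by DESeq2 and 0.0334 by limma-voom.

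TGFBI, a TGF-beta-induced matrix protein, was 3470, 3530, 2580, 2670 and 3890 in MC and 1950, 1420, 1400, 1650 and 1820 in Chemo. The lowest MC value, in MC 42, was above the highest Chemo value, in Chemo 19. The log2 fold change was 0.98 (SE 0.15; adjusted p 0.0633 by edgeR, 3.51e-06 by DESeq2, 0.0271 by limma-voom).

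CALB2, the calcium buffer calretinin, was 198, 138, 191, 119 and 162 in MC and 74.2, 76.1, 66.7, 78.3 and 68.6 in Chemo (log2 fold change 1.16, SE 0.18; adjusted p 0.0633 by edgeR). HHIP, a decoy for hedgehog ligands, was 227, 219, 259, 187 and 197 in MC and 106, 26.9, 32.8, 38.1 and 77.2 in Chemo (log2 fold change 1.94, SE 0.32; adjusted p 0.0735 by edgeR). PAEP, the secreted protein glycodelin, was 1160, 304, 239, 351 and 418 in MC and 39.8, 53.7, 72.4, 90.7 and 136 in Chemo (log2 fold change 2.64, SE 0.44; adjusted p 0.0735 by edgeR). All 3 separated the groups, with MC 6 far above the other MC libraries for PAEP.

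Further human genes higher in MC were chosen after their values were seen, and they belong to no single list. ZEB1, a repressor of epithelial genes, was 276, 420, 398, 198 and 289 in MC and 182, 102, 113, 159 and 139 in Chemo (log2 fold change 1.19, SE 0.22; DESeq2 adjusted p 0.000366). SNAI2, a related repressor, was 172 ± 32.1 and 108 ± 27 (log2 fold change 0.68, SE 0.20). Each MC library was above each Chemo library for both, as it was for COL6A2 (log2 fold change 1.64), TAGLN (1.06), TGFB1I1 (0.98), HTRA1 (1.26), FSCN1 (0.74), AKAP12 (1.98) and TNFSF9, a ligand of the TNF family (1.37). LTBP1 (1.22) and CST1, a cystatin (3.15), overlapped, each with MC 48 below the highest Chemo library.

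VIM was 11500, 20800, 22000, 7770 and 8430 in MC and 9270, 4400, 7570, 6660 and 8230 in Chemo. MC 6, 41 and 42 were above all Chemo libraries and MC 48 and 59 were within their range (log2 fold change 0.97, SE 0.29; adjusted p 0.357 by edgeR). The highest values were in MC 41 and MC 42, the libraries with the extra RNA cleanup, and without these libraries the log2 fold change was 0.36. AXL, a receptor kinase of the mesenchymal state, was 2360 ± 319 in MC and 1770 ± 422 in Chemo (log2 fold change 0.42, SE 0.16).

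The epithelial-mesenchymal list, which holds markers of both states, had 5 of 16 genes higher and 11 lower with a median of -0.16, which was -0.26 without Chemo 19, -0.25 without MC 41 and -0.10 without Chemo 33. CDH1 was 1660, 2620, 3100, 2660 and 2400 in MC and 2640, 3930, 3890, 3840 and 3690 in Chemo, so only Chemo 19 fell among the MC libraries (log2 fold change -0.53, SE 0.16; adjusted p 0.357 by edgeR). EPCAM had a log2 fold change of -0.29 (SE 0.12), and ESRP1, a splicing factor of epithelial cells, of -0.28. No epithelial gene of the list passed the edgeR test. Of its mesenchymal markers, CDH2 (-0.15), FN1 (-0.10), ZEB2 (-0.17) and TWIST1 (-0.35) had log2 fold changes below 0 and did not pass the test either. Keratin and cornified genes, a separate epithelial list, were higher in 4 of 19 tested with a median of -0.15, and KRT14 (1.03), KRT17 (0.23) and DSP (0.21) were among those with a log2 fold change above 0. Beside both lists, the share higher over all human genes tested was 49.1%.

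The murine namesakes of some of these genes were read in the same libraries. The murine log2 fold change was 0.17 (SE 0.26) for Col6a1, -0.05 (SE 0.24) for Tgfbi, 0.24 (SE 0.16) for Zeb1, -0.04 (SE 0.24) for Tagln, 0.15 (SE 0.21) for Akap12 and 0.32 (SE 0.18) for Vim. For Ltbp1 it was 0.79. The difference between the genomes was not tested, and how reads that match both genomes were assigned is not given in the sources used here. Human COL6A2 counts were 10.1% of the murine Col6a2 counts over the 10 libraries, so its value is the least certain of the genes in this comparison of genomes.

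CTRL tumors spanned these values widely. CTRL 17 and CTRL 44 had VIM at 71900 and 50200 and ZEB1 at 1340 and 1380, with CDH1 at 2.73 and 312. CTRL 31 and CTRL 70 had VIM at 10500 and 9840, ZEB1 at 230.0 and 183, and CDH1 at 2980 and 2880. The MC and Chemo libraries were all nearer to the latter pair in CDH1.

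**Figure D3:**
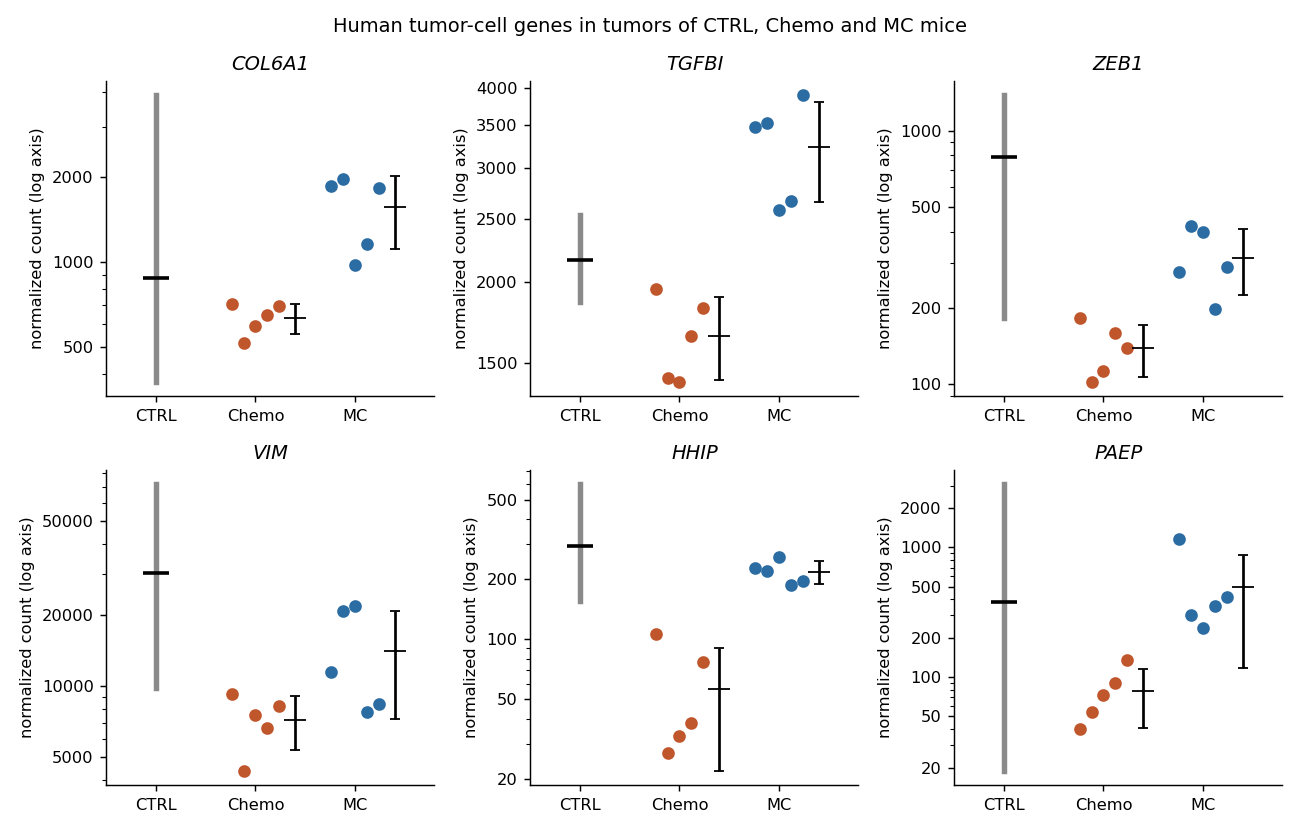
Normalized counts of 6 human genes on a log axis, with 1 point per Chemo and MC library, the mean with SD beside them, and a grey bar from the lowest to the highest CTRL library with its median. COL6A1 was 970 to 1960 in MC and 517 to 706 in Chemo, while VIM overlapped between the groups.

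Interferon-stimulated genes of the cancer cells were lower in MC than in Chemo. All 34 tested, of 36 on the list, were lower, with a median log2 fold change of -0.47 and a range from -0.83 to -0.18, where the median of all human genes was -0.004 and 49.1% were higher. At an unadjusted p below 0.05, 28 were lower, 5 separated the groups, and the lowest edgeR adjusted p was 0.206. Over all human genes tested, 4.31% were lower at that p and 0.829% lay below Chemo in every MC library. The list level was 9.53, 9.96, 9.75, 10.12 and 9.91 in MC 6, 41, 42, 48 and 59 and 10.18, 10.53, 10.26, 10.33 and 10.44 in Chemo 19, 30, 33, 34 and 67. The groups did not overlap, with MC 48 and Chemo 19 the closest. The median was between -0.54 and -0.39 with each library left out and -0.47 without the 4 libraries high in muscle or fat genes. Here too, fewer cells of a type and less RNA per cell cannot be told apart in bulk tissue.

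PARP9, which assists interferon signaling, was 682, 891, 796, 886 and 1130 in Chemo and 591, 575, 606, 586 and 480.0 in MC (log2 fold change -0.62, SE 0.13; adjusted p 0.206 by edgeR, 0.0142 by DESeq2). IFIT2, an antiviral RNA-binding protein, was 975, 1450, 1430, 1190 and 1110 in Chemo and 364, 735, 806, 822 and 719 in MC (log2 fold change -0.83, SE 0.19; DESeq2 adjusted p 0.0229). RSAD2, the antiviral enzyme viperin, was 659, 747, 600.0, 645 and 752 in Chemo and 217, 425, 407, 581 and 400.0 in MC, a log2 fold change of -0.74. In these 3 genes, and in SAMD9L and DDX60, every MC library was below every Chemo library.

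STAT2 and IRF9, transcription factors that carry the interferon signal, had lower means in MC as well. STAT2 was 1060 ± 234 in MC and 1640 ± 441 in Chemo, and IRF9 was 57.7 ± 11.8 and 89.9 ± 27.1 (SD, n = 5 each), with log2 fold changes of -0.63 and -0.64. ISG15, a ubiquitin-like modifier, was 2430, 3950, 2020, 3060 and 3340 in MC and 3720, 4250, 4280, 3830 and 5040 in Chemo (log2 fold change -0.51, SE 0.17), and MC 41 was the 1 MC library above any Chemo library. DHX58, LAMP3, HLA-DRA and PLAAT4, other interferon-responsive genes chosen after their values were seen, were among the 20 human genes that DESeq2 called lower, with log2 fold changes of -0.61, -1.02, -1.53 and -0.87.

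MHC class I genes, which present peptides on the cell surface, were lower in 11 of 14 tested with a median of -0.31, 7 of them at an unadjusted p below 0.05. The median was -0.17 without Chemo 67. Over all human genes tested, 49.1% were higher in MC and 4.31% were lower at that p. HLA-B was 10100 ± 2140 in MC and 14100 ± 2270 in Chemo (log2 fold change -0.48, SE 0.16), HLA-C 5480 ± 949 and 7550 ± 1240 (-0.46, SE 0.15). B2M, the shared light chain, was 13900, 19300, 16500, 16600 and 16300 in MC and 23700, 19100, 25800, 19000 and 27000 in Chemo (log2 fold change -0.47, SE 0.14). MC 41 was above Chemo 30 and Chemo 34, so the groups overlapped. Reads of the class I genes can be shared among their near copies.

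CTRL libraries were again spread, with interferon levels of 6.87 in CTRL 17, 8.02 in CTRL 44, 9.76 in CTRL 70 and 9.97 in CTRL 31. The 2 lowest were the libraries with the lowest CDH1 and the highest VIM. Murine interferon-stimulated genes showed no such shift: 10 of 30 were higher and 20 lower with a median of -0.10 (-0.19 to 0.05 with each library left out), and Isg15 had a log2 fold change of 0.00 (SE 0.34). The share higher over all murine genes tested was 52.2%. The difference between the genomes was not tested.

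**Figure D4:**
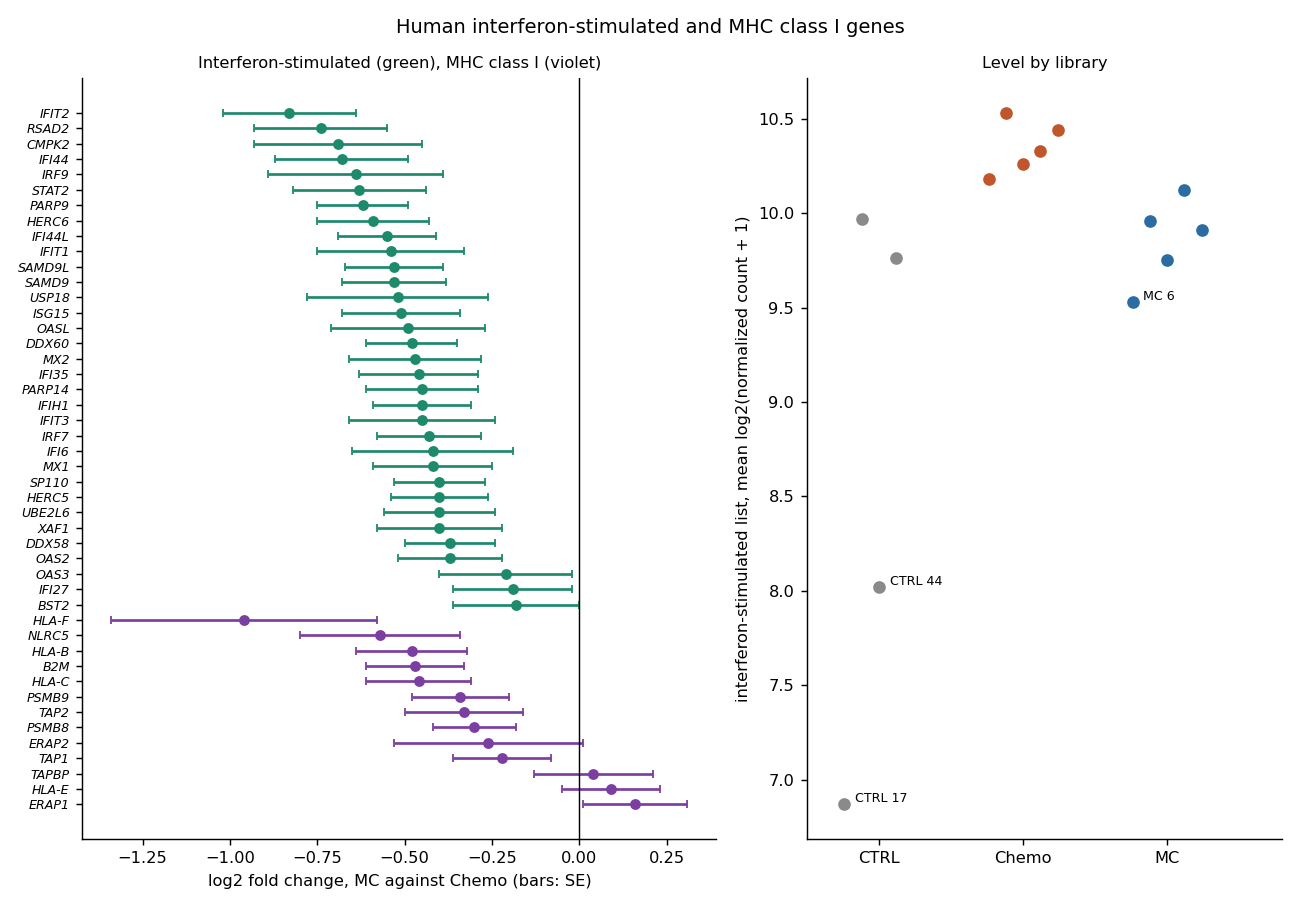
Log2 fold change (MC minus Chemo) with SE for 33 of the 34 tested human interferon-stimulated genes and 13 of the 14 tested MHC class I genes, and the interferon list level, mean log2(normalized count + 1), in each CTRL, Chemo and MC library. The interferon genes drawn lay between -0.83 and -0.18, and the list level was 9.53 to 10.12 in MC and 10.18 to 10.53 in Chemo.

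The other human genes lowest in unadjusted p were lower in MC and had diverse roles. OLR1, a receptor for oxidized LDL, was 65.6, 71.7, 71.2, 38.1 and 35 in Chemo and 13.5, 17.7, 8.5, 21.7 and 28.7 in MC (log2 fold change -1.66, SE 0.35; adjusted p 0.175 by edgeR). CST6, the protease inhibitor cystatin M, was 3350, 2750, 3000, 2670 and 3560 in Chemo and 1460, 1920, 1630, 2340 and 2280 in MC (log2 fold change -0.67, SE 0.15). FUT4, a fucosyltransferase, was 94.6, 120, 128, 105 and 90.0 in Chemo and 56.8, 53, 68, 70.1 and 62.8 in MC (log2 fold change -0.78, SE 0.18). ENSG00000279289, an identifier for which the files give no symbol, was 171 ± 39.5 in MC and 344 ± 63.3 in Chemo (adjusted p 0.104 by edgeR). None of the 4 overlapped between the groups.

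Of the 55 human genes that DESeq2 called higher, 33 separated the groups, MC 41 was the highest library in 16, and all 55 kept a higher mean in MC without the 4 libraries, 49 by more than 1.5-fold. Of the 20 called lower, 18 separated the groups and all 20 kept the sign, 18 by more than 1.5-fold. Over all human genes tested, 0.949% lay above Chemo in every MC library and 0.829% below. The libraries that remain, with only MC 42 and MC 59 from MC, also made the calls, so these counts are no independent test of them.

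Metabolic lists of the cancer cells differed by small amounts. Of 24 hypoxia genes 23 were higher in MC with a median of 0.20, 5 at an unadjusted p below 0.05. Over all human genes tested, 49.1% were higher and 4.83% were higher at that p. NDRG1, a hypoxia-induced stress gene, was 19800, 30000, 22600, 21700 and 23100 in MC and 15900, 14700, 9640, 16300 and 18100 in Chemo (log2 fold change 0.66, SE 0.17; DESeq2 adjusted p 0.04), without overlap. PFKFB3, which drives glycolysis, was 1150 ± 143 and 770 ± 260 (log2 fold change 0.59), while VEGFA had 0.11 (SE 0.19) and LDHA 0.07 (SE 0.20). The list median was 0.10 without MC 41. Murine hypoxia genes were higher in 19 of 23 with a median of 0.36, and 0.10 without the 4 libraries high in muscle or fat genes. The share higher over all murine genes tested was 52.2%.

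Of 21 genes of sterol and fatty acid synthesis, 20 were higher in MC with a median of 0.25, 5 at an unadjusted p below 0.05 and 0 without overlap. The shares over all human genes tested were 49.1% higher and 4.83% higher at that p. SCD, which desaturates fatty acids, was 1450, 2700, 3540, 2590 and 2720 in MC and 1650, 1740, 1310, 1920 and 1710 in Chemo (log2 fold change 0.65, SE 0.19). Apart from MC 6, each MC library was above all Chemo libraries. INSIG1, a sterol sensor, was 673 ± 162 in MC and 452 ± 98.8 in Chemo (log2 fold change 0.58, SE 0.17, and 0.32 without MC 41 and MC 42).

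Proliferation genes differed less: 25 of 32 human genes were higher in MC with a median of 0.09 and none at an unadjusted p below 0.05. Over all human genes tested, 49.1% were higher and 4.83% were higher at that p. The median of the list was 0.04 without Chemo 34 and 0.17 without Chemo 67. MKI67 was 3000 ± 334 in MC and 2480 ± 691 in Chemo (log2 fold change 0.29, SE 0.18), where Chemo 33 was at 1380 and the other Chemo libraries at 2340 to 3230. Murine proliferation genes had a median of -0.05 with 9 of 25 higher, where 52.2% of all murine genes tested were higher. The NRF2 list, targets of the sensor of reactive compounds, had a human median of -0.02 with 9 of 19 higher. HMOX1, heme oxygenase, was 426 in MC 41 and 44.7 to 83.3 in the other 9 libraries (log2 fold change 1.32, SE 0.52, and 0.26 as the lowest value with 1 library left out). NQO1 was 185 ± 29.9 and 163 ± 12.2 (log2 fold change 0.19, SE 0.14).

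Genes of drug handling included the cytochromes CYP2J2, CYP26B1 and CYP20A1, which the study discusses by name. CYP2J2, a cytochrome P450, was 24.4, 60.0, 29.1, 42.3 and 28.7 in MC and 64.5, 53.7, 55.4, 60.4 and 87.9 in Chemo (log2 fold change -0.80, SE 0.27; adjusted p 0.382 by edgeR), with MC 41 inside the Chemo range. CYP26B1, which breaks down retinoic acid, had a log2 fold change of 1.01 (SE 0.39) and CYP20A1 of 0.32 (SE 0.15). Human CYP26B1 counts were 3.29% of the murine namesake's counts over the 10 libraries, so its value is uncertain as well. ABCC3, a drug export pump and the member of the ABC transporter list with the lowest p, was 758 ± 189 in MC and 1210 ± 463 in Chemo (log2 fold change -0.67, SE 0.25, and -0.44 without MC 41 and MC 42). Murine Cyp2e1 did not pass the filter on low counts.

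PDGFA, a growth factor for pericytes and fibroblasts, was 388, 305, 328, 247 and 218 in MC and 204, 156, 162, 169 and 223 in Chemo (log2 fold change 0.71, SE 0.17; DESeq2 adjusted p 0.036), and MC 59 was just below Chemo 67. PDGFB (-0.01, SE 0.38), PDGFRB (0.55, SE 0.33), RHOD (-0.14, SE 0.20), RHOF (-0.18, SE 0.16), RHOJ (-0.15, SE 0.25) and RHOV (-0.42, SE 0.25) had overlapping groups, the values being log2 fold changes. Human counts were 31.1% of the murine namesake's for PDGFA, 11.2% for PDGFRB and 4.51% for RHOJ, which limits their human values in the same way, and RHOV was at -0.20 without MC 41 and MC 42. Of the insulin-related genes, FOXO1 was 261 ± 53.9 and 174 ± 32.6 (log2 fold change 0.59, SE 0.17), SLC2A8 had -0.04 (SE 0.14) and IGFBP1 0.95 (SE 0.53), which was -0.05 without MC 41 and MC 42. PPARGC1A, a regulator of mitochondria, was 238 in MC 41, 75.8 in MC 6 and 9.05 to 23.7 in the other 8 libraries, the same order of MC 41 and MC 6 as the murine fat genes.

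Across all 35 lists, 14 of the 17 human and 9 of the 18 murine medians kept their sign with each library left out in turn. With all 10 libraries, the human interferon (-0.47) and MHC class I (-0.31) lists had the lowest human medians and the identity (0.31) and sterol (0.25) lists the highest. The order of the latter pair turned without MC 41, where the identity median was 0.19 and the sterol median 0.22, and without the 4 libraries high in muscle or fat genes they were 0.12 and 0.29. Among murine lists the p53 (-0.26) and endothelial (0.37) medians were -0.44 and 0.48 without the 4 libraries high in muscle or fat genes, where the muscle, adipocyte and oxidative phosphorylation medians were 0.21, -0.68 and 0.00. The muscle and adipocyte changes follow from choosing these libraries by their muscle and fat levels. Without them, MC 42 and MC 59 were the only MC libraries.

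**Figure D5:**
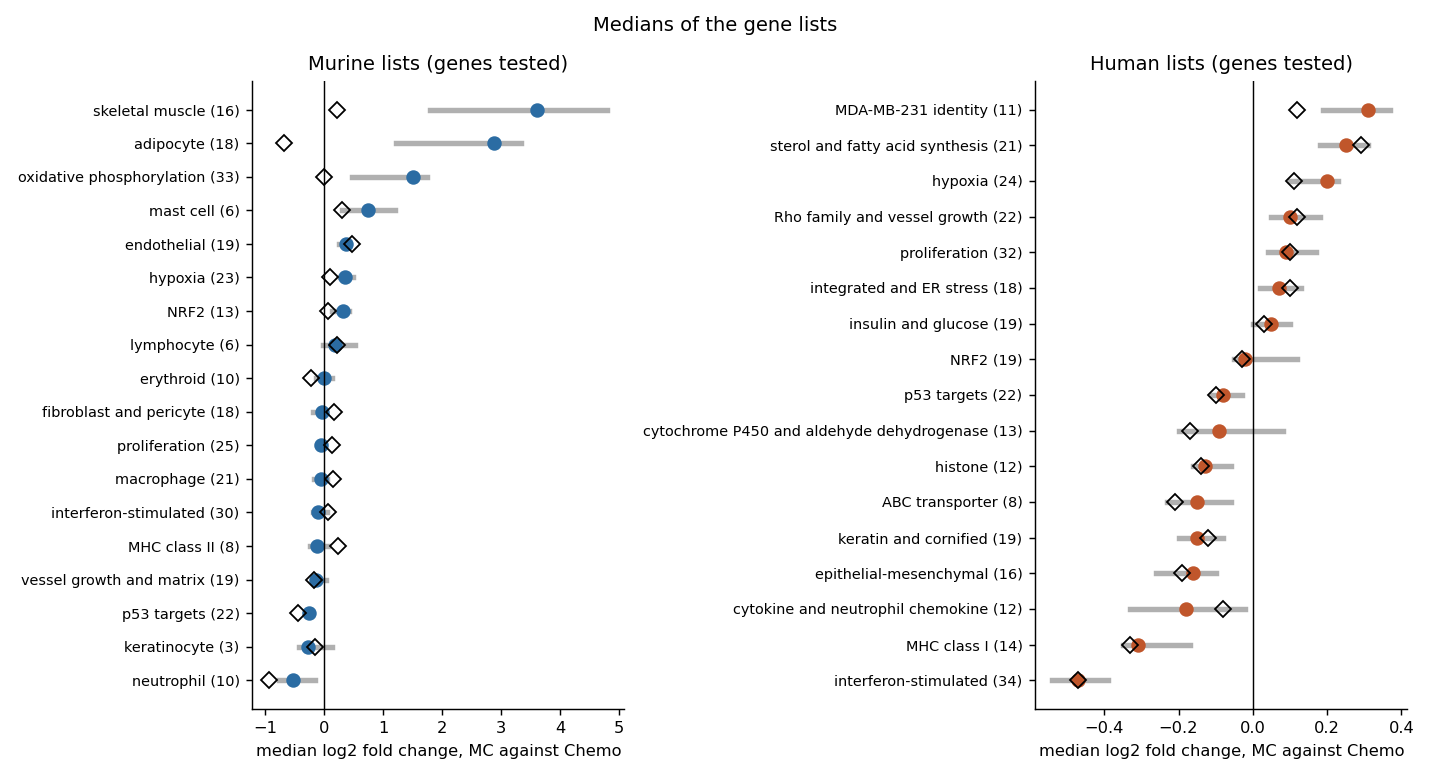
Median log2 fold change (MC minus Chemo) of each murine and human gene list, with the number of genes tested in brackets, the range with each library left out as a grey bar and the median without MC 6, MC 41, MC 48 and Chemo 30 as an open diamond. The murine muscle list moved from 3.61 to 0.21 without these libraries, and the human interferon list was -0.47 both ways. These libraries were chosen for their high muscle or fat levels, so the fall of the muscle list follows from that choice. The diamonds compare only MC 42 and MC 59 with Chemo 19, 33, 34 and 67.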

How the data were processed

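Tumor RNA was made into QuantSeq 3′ libraries read as 50-base forward reads. The authors made the read counts per gene with BlueBee and deposited 1 table per genome (16667 murine and 18880 human genes; lowest gene total 72). The normalized signal tables deposited by the authors equal these counts divided by DESeq2 size factors over 24 libraries, and values of single libraries are on that scale. The submitters' processing notes name DESeq2 1.22.2 and GRCm38; the human build is not given in the sources used here. The tables carry no positions. Replicates are tumors of different mice.

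The main test was the edgeR 4.0.16 quasi-likelihood F test (R 4.3.3, limma 3.58.1) on the 10 libraries, with TMM scaling, the filterByExpr filter and Benjamini-Hochberg adjustment over all genes of a genome. DESeq2 1.42.0, limma-voom, other scalings and filters, wider fits and left-out libraries were alternatives. Scripts were tested on simulated data. The share of human counts was tested by exact permutation in SciPy 1.17.1. Intervals cover counting error only.

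Genes were named where they were among the 5 lowest unadjusted p per genome and direction (mean above 30, fold above 1.5), were the first 3 members or the lowest p of a list, or were discussed in the study; others were chosen after their values were seen. Besides those marked in the text these are Zmat3, Eda2r, Cidea, Retnla, Ccr2, COL6A2, ZEB1, SNAI2, TAGLN, LTBP1, TGFB1I1, HTRA1, FSCN1, AKAP12, CST1, TNFSF9, INSIG1, PPARGC1A and every further list member given by value. The contrast and the lists were chosen with earlier results of these data known, so no list was given a p. Some members of the lists are counted in them but not reported singly here.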

Additional observations from a re-analysis of the deposited data

Results flagged for a closer look

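A sample is given here when its distance to the nearest other sample of its group was large against the range of that group of 5. Of 456 groups tested, 33 gave such a sample, and chance gives about 1 in 20. By library, Chemo 19 was named 5 times, Chemo 30 4, Chemo 33 2, Chemo 34 1, Chemo 67 6, MC 6 7, MC 41 6, MC 48 1 and MC 59 1. No cause was tested.

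MC 41 had a human share of 47.8%, and Chemo 67 had 14921856 human counts. Among list levels, Chemo 30 was at 7.41 for murine skeletal muscle, Chemo 19 at 7.31 for endothelial, Chemo 67 at 9.6 for MHC class II and 8.12 for keratinocyte genes, MC 41 at 7.45 for murine NRF2 targets and MC 6 at 7.69 for human p53 targets.

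Among murine genes in MC, the normalized count was 130 for Kcnj8 and 0 for Chil3 in MC 6, and 10.9 for Ngp, 11900 for Col1a1 and 382 for Mmp13 in MC 41. In Chemo 30 it was 601 for Acta1, 479 for Myh4 and 2.33 for Ak4. Ndufb8 was 826 and Zmat3 202 in Chemo 19, Ndufs1 was 297 in Chemo 33, and H2-Ab1 was 6530 and H2-Eb1 5540 in Chemo 67.

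Among human genes, MC 6 was apart for IFIT2 (364), DDIT3 (234), HSPA5 (9100) and KRT5 (942), MC 59 for PARP9 (480), MC 41 for HMOX1 (426) and MC 48 for CYP26B1 (8.25). In Chemo, the values were 2640 for CDH1 and 283 for LTBP1 in Chemo 19, 4710 for LDHA in Chemo 33, 731 for RHOF in Chemo 34 and 261 for TGFB1I1 in Chemo 67.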

How the results depend on the processing

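No paired analysis was possible because the MC and Chemo libraries share no replicate number. With edgeR, all settings that kept the 10 libraries and no others called 0 genes in either genome. Murine genes called numbered 43 with DESeq2, 198 with DESeq2 on 20 libraries, with DESeq2 and 1 library left out 12, 47, 13, 16 and 22 (Chemo 19, 30, 33, 34 and 67) and 13, 6, 234, 147 and 183 (MC 6, 41, 42, 48 and 59), and, without MC 6, MC 41, MC 48 and Chemo 30 (a choice made after seeing the data, as was leaving out libraries under DESeq2), 1 with edgeR and 8 with DESeq2. Human genes called numbered 75 with DESeq2, 9 with limma-voom, 10 with DESeq2 on 20 libraries, 17 with MC + Chemo 5 counted as MC (its labels conflict), 3 without MC 41 and MC 42, 0 to 13 with edgeR and 1 library left out (5 without Chemo 19, 2 without Chemo 67, 3 without MC 42, 13 without MC 48), with DESeq2 103, 33, 49, 41 and 164 and 50, 42, 49, 136 and 54 in the same order, and 20 with DESeq2 without the 4 libraries. Murine genes higher at an unadjusted p below 0.05 went from 830 to 421 with limma-voom, 171 with RNA cleanup as a covariate, 429 without MC 41 and MC 42, 279 without MC 41 and Chemo 30, 366 (without MC 41) to 1082 with 1 library left out, 179 without the 4 and 139 with DESeq2 without the 4; those lower went from 327 to 191 with the covariate and 247 to 510 (without Chemo 67) with 1 left out. Human genes higher went from 723 to 371 without MC 41 and Chemo 30, 249 without the 4 and 237 with DESeq2; those lower went from 645 to 312 on 20 libraries, 323 on 24, 417 with DESeq2 on 20, 318 without the 4 and 340 with DESeq2. The log2 difference of human totals was 0.00438, and -0.201 to 0.151 with 1 library left out, of either sign; the difference in human share was -1.21 without MC 41.

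List medians that moved by more than the spread between libraries were murine p53 targets (-0.41 without MC 41 and MC 42, -0.44 without the 4), muscle 0.21, adipocyte -0.68 and oxidative phosphorylation 0.00 without the 4 and 0.47 (without MC 41) to 1.74 with 1 library left out, human identity 0.12 without the 4, and human cytochrome P450 and aldehyde dehydrogenase genes 0.07 without MC 41 and MC 42 and -0.20 to 0.08 (without Chemo 33) with 1 left out, from -0.09. The other 481 of 490 list values moved less. Among named genes a reversal was counted where both values lay more than 1 SE from 0, and 5 genes reversed without the 4 libraries: Adipoq -1.17, Plin1 -1.23, Lep -2.11 (DESeq2 -2.0), Ndufa4 -0.55 (DESeq2 -0.56) and Ndufs1 -0.25. These are adipocyte and oxidative phosphorylation genes, and the 4 libraries were chosen for high muscle or fat levels. Some setting brought 64 of 190 named genes past the threshold. The common coefficient of variation between libraries was 0.34 (murine) and 0.242 (human), and a p above the threshold does not show equal levels. The cause of these shifts was not tested.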
